A study of Mus musculus with 18 samples.

Results

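The oxidative phosphorylation genes described here were the nuclear genes whose names start with Ndufa, Ndufb, Ndufc, Ndufs, Ndufv, Uqcr, Atp5 or Cox4 to Cox8, and 90 of the 32285 genes in the matrices were members. They were followed in cells prepared from the gut of ST8Sia6 knockout (KO), heterozygote (het) and wildtype (WT) mice, in the small bowel epithelium, the small bowel lamina propria and the whole colon, in which lamina propria and epithelium had been combined. ST8Sia6 is a sialyltransferase that adds sialic acid to glycans. The procedure was carried out in 3 separate runs, each with 1 KO mouse, 1 het mouse and 2 WT mice, so a WT value pools 2 mice, and strain, age and sex are not given in the sources used here. All groups shared the same treatment: cells were taken from a Percoll interface and enriched for CD45, the surface marker of blood-derived cells, labelled by genotype with a hashtag antibody, combined by organ and captured together with 5′ droplet chemistry.

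Oxidative phosphorylation passes electrons through the complexes of the inner mitochondrial membrane and uses the resulting proton gradient to make ATP. Complex I (NADH dehydrogenase; names in Nduf) takes electrons from NADH, complex III (Uqcr) passes them to cytochrome c, complex IV (Cox) hands them to oxygen, and complex V (Atp5) is the ATP synthase. Ndufs and Ndufv genes encode mainly the electron-carrying core and nearby subunits of complex I, the other Nduf genes encode mostly accessory subunits, and Ndufaf genes encode assembly factors that are not part of the finished complex. The absorptive epithelium of the gut is rich in mitochondria, and plasma cells, which secrete antibody, are known to depend on respiration.

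The members were counted as unique molecules (UMIs). Sums were made over the cells of 1 gate, 1 genotype and 1 library of a tissue, with at least 10 cells, and 169 such sums were obtained. Gates used 1 molecule of a defining gene: Cd3e split by Cd4, Cd8b1 or Trdc for T cells, Ms4a1 for B cells, Mzb1 for plasma cells, C1qa for macrophages and Epcam for epithelial cells. Cells that met 2 gates were left out, except that cells with Ms4a1 and Mzb1 stayed in the B cell gate. After the study's filters 16705 epithelium, 21347 lamina propria and 21286 colon cells remained, and 51.5%, 44.4% and 49.0% of these entered a gate. The 3 tissues' matrices held 99383902, 158556738 and 191560456 molecules before filtering. Cells with the same barcode numbered 0 within any library and 139, 190 and 197 between the libraries of the epithelium, lamina propria and colon. Median molecules per cell were 3105 to 5546 in all barcode endings but the WT cells of lamina propria library 3, which stood apart with a median of 1422.5 molecules and 505.5 genes, and in which the WT hashtag led in 55.7% of cells. The WT hashtag led in 84.2% and 72.5% of cells in the WT endings of epithelium libraries 1 and 2, and a genotype's own hashtag led in at least 95.7% elsewhere. St8sia6 itself was at 35.5, 44.4 and 45.2 CPM (molecules of the gene for every 1000000 molecules of the sum) in KO, 53.9, 59.2 and 57.5 CPM in het and 62.1, 75.6 and 72.4 CPM in WT lamina propria plasma sums of libraries 1 to 3, but 5′ tags outside the deleted part would not test the deletion.

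The gates were compared with their marker lists. Where a list holds the defining gene of a gate, its level in that gate is partly set by the gate itself. The 8 epithelial markers together had medians of 7807, 5348 and 7921 CPM in the Epcam gates of epithelium, lamina propria and colon. The plasma cell list had a median of 235450 CPM in the lamina propria and 74408 CPM in the colon Mzb1 gate. The T cell list had medians of 2324 to 5847 CPM in the T cell gates, the B cell list 6006, 3495 and 5113 CPM in the Ms4a1 gates of the 3 tissues, and the macrophage list 5424 CPM in the lamina propria and 7989 CPM in the colon C1qa gate. The Mzb1 gate of the small bowel epithelium went against its label: 108 of its 153 cells (70.6%) carried Siglech, which marks plasmacytoid dendritic cells, and immunoglobulin genes held 0.137% to 39.5% of its molecules. It is called the Mzb1 gate below and entered no comparison. Immunoglobulin RNA was also present in lamina propria cells of other gates. The plasma cell list there stood at 46044 to 115724 CPM in the Ms4a1 gate, which kept cells with Mzb1. It stood at 9594 to 45720 CPM in the C1qa gate and 4380 to 28817 CPM in the Epcam gate.

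Members made up 2.30% of all molecules in the sums, and 60 of the 90 were seen in every sum. The 17 Atp5 genes held 32.8% of the members' molecules, the 18 Cox4 to Cox8 genes 27.1%, the 28 other Nduf genes 23.0%, the 8 Uqcr genes 10.3%, the 11 Ndufs and Ndufv genes 5.96% and the 8 Ndufaf assembly factors 0.915%. A few small subunits were most abundant. Cox8a, a small subunit of complex IV, averaged 923 CPM over the sums, Cox4i1, a regulatory subunit of the same complex, 841 CPM, Atp5e, the epsilon subunit of the ATP synthase, 710 CPM, Atp5g3, which encodes the membrane ring subunit c, 606 CPM, and Uqcrh, the hinge protein of complex III, 528 CPM. Chemistry that reads 1 end of a transcript counts each molecule once, so these levels need no division by length, although genes can differ in how well their 5′ end is captured. The 20 most abundant members held 50.4% of member molecules. At the other end were tissue-specific paralogs: Cox4i2, a lung form, had 55 molecules in all sums, Cox8b, a heart and muscle form, had 8, Cox7b2 had 2 and Cox8c had 1.

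Summed over all members, epithelial cells had the highest mean level in each of the 3 tissues. In the epithelium preparation the Epcam gate held 32188 ± 6788 CPM in KO, 25996 ± 3708 CPM in het and 34468 ± 10079 CPM in WT mice (SD, n = 3 libraries each). Its WT libraries held 36143, 23656 and 43605 CPM, a wide spread, yet the lowest lay above every T cell sum of that tissue. In the colon the Epcam gate held 41955 ± 3759 CPM in KO, 39933 ± 3813 CPM in het and 39390 ± 2491 CPM in WT, and in the lamina propria 34153 ± 5119, 34590 ± 3502 and 32245 ± 3385 CPM (KO, het and WT). The T cell gates lay close together. In WT epithelium, Cd4 T cells held 18751 ± 825 CPM, Cd8b1 T cells 18475 ± 1302 CPM and Trdc T cells, which carry the gamma delta receptor, 18562 ± 1118 CPM, differences smaller than the spread between libraries.

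In the WT colon the order ran from epithelial cells through Trdc T cells (21602 ± 1310 CPM), macrophages (17721 and 20282 CPM in 2 sums), Cd8b1 T cells (18494 ± 323 CPM), Cd4 T cells (18278 ± 1193 CPM) and B cells (16606 ± 1092 CPM) to plasma cells (11150 ± 1048 CPM; SD, n = 3 libraries where an SD is given). From Trdc T cells to B cells the ranges of neighbours in this order overlapped, and epithelial and plasma cells lay outside them. Plasma cells were lowest in both tissues, with 8657 to 10996 CPM in the lamina propria and 10081 to 12176 CPM in the colon over all genotypes. That rank depended on immunoglobulin transcripts, which held 50.7% to 56.0% of lamina propria and 33.4% to 50.3% of colon plasma cell molecules. With immunoglobulin genes left out of the total, plasma cell sums were 17834 to 22841 CPM in the lamina propria and 16815 to 22818 CPM in the colon, within the range of T cells.

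**Figure D1:**
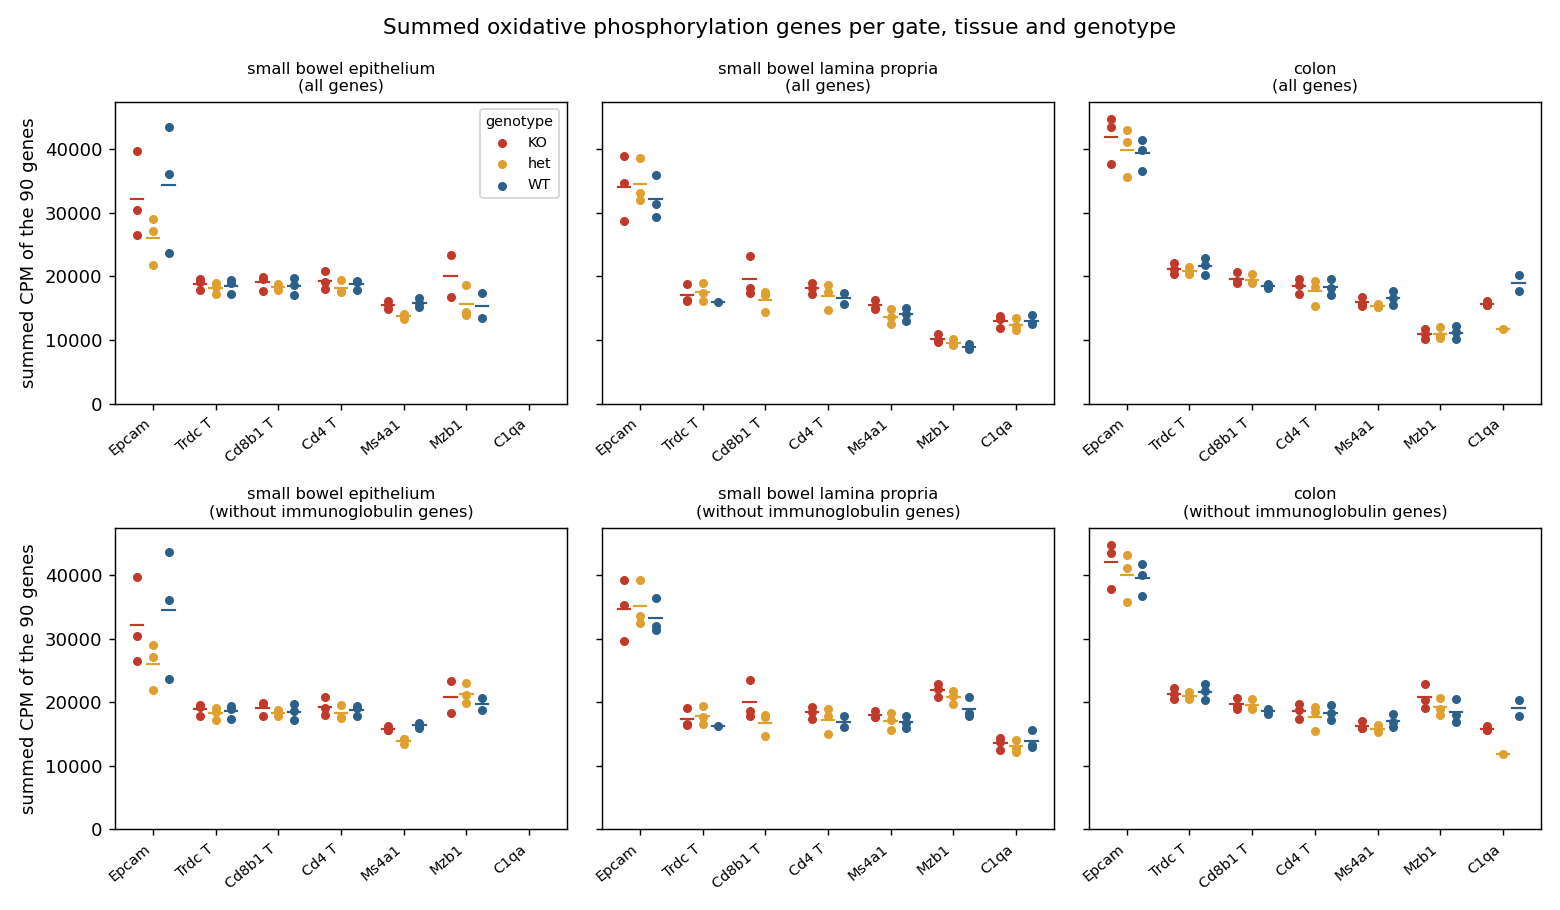
Summed CPM of the 90 oxidative phosphorylation genes (y axis) by cell gate (x axis) in the 3 tissues, relative to all genes in the upper row and to genes other than immunoglobulin genes in the lower row. Points are libraries, bars are means, and KO, het and WT stand side by side. Epithelial means lie highest in each tissue, with sums at 35665 to 44732 CPM in the colon (upper row). In the lower row of the small bowel epithelium the Mzb1 gate reaches 23355 CPM, above the lowest epithelial sum (21862 CPM). Plasma cells are lowest only while immunoglobulin genes are counted.

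Genes of every complex were higher in epithelial cells, while most Ndufaf assembly factors did not pass the test. Epithelial cells were set against Cd8b1 T cells of the same WT epithelium libraries (1194 against 853 cells) in a quasi-likelihood fit of edgeR over 11629 genes with the library as a block, in which a call is a Benjamini-Hochberg adjusted p under 0.05. Of the 90 members 84 could be tested, 69 were higher in epithelial cells and 1 was lower, where 34.7% of all genes were called higher and 31.8% lower. With KO and het sums in the fit 71 were higher and 2 lower, where 36.1% of genes were called in each direction. In cell type fits over all genotypes, here and below, each genotype of a library was its own block. Pairs of sums from 1 capture counted separately there, so those calls do not measure the spread between captures. In the WT fit the median log2 fold change was 1.11 over the members tested (quartiles 0.59 and 1.47) and -0.01 over all genes. Cells with Cd3e were left out of the Epcam gate, in which 5 of 6 genes of the T cell marker list were detected. The list lay at 30.6 to 63.1 CPM in these WT epithelial sums, and its part in the result was not tested.

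Complex I showed the split most plainly. All 11 Ndufs and Ndufv genes were higher (median 1.29) and so were 21 of 27 tested other Nduf genes (median 0.93), but of 8 Ndufaf assembly factors only 2 were higher and 1 was lower (median 0.18). Values below are CPM scaled by library factors (TMM, over the sums of a comparison) and therefore shift a little from one comparison to the next. Ndufv1, the subunit that binds NADH, had 191, 136 and 222 scaled CPM in epithelial cells of libraries 1 to 3, against 55.1, 79.2 and 59.8 in Cd8b1 T cells (log2 fold change 1.42). The lowest epithelial library lay above the highest T cell library. The accessory subunit Ndufb9 had 543, 348 and 653 in epithelial cells, against 156, 113 and 188 in T cells (1.62). Ndufa4, named for complex I but now placed with complex IV, had 773, 535 and 904 in epithelial cells, against 200, 199 and 289 in T cells (1.54). The one member that fell was Ndufaf5, an enzyme that modifies Ndufs7 during assembly. It had 15.4, 9.65 and 16.0 scaled CPM in epithelial cells, against 20.9, 21.1 and 23.9 in T cells, without overlap (-0.78, SE 0.30, adjusted p = 0.0193).

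Of the Uqcr genes of complex III, 7 of 8 were higher (median 1.51). Uqcr11, a small subunit, had 736, 518 and 935 scaled CPM in epithelial cells, against 114, 118 and 169 in Cd8b1 T cells (2.30, SE 0.20, adjusted p = 2.95e-17). Uqcrc1, a core protein, had 418, 323 and 491 in epithelial cells, against 81.7, 80.9 and 116 in T cells (2.01, SE 0.19, adjusted p = 1.93e-15). Uqcrh was the exception among the 8, with 697, 464 and 910 in epithelial cells, against 448, 399 and 597 in T cells, ranges that overlap (0.35, adjusted p = 0.092). The abundant hinge protein thus missed the threshold while the core proteins and small subunits around it passed.

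Complex IV gave 12 higher of 13 tested (median 1.29). Cox4i1 had 1718, 1112 and 2162 scaled CPM in epithelial cells, against 631, 568 and 815 in T cells (1.14). Cox8a, the most abundant member, had 1776, 1087 and 2100 in epithelial cells, against 876, 679 and 1005 in T cells (0.78, adjusted p = 0.00058). Cox7a2l, which joins complexes III and IV into larger assemblies, was the one not called, with 214, 150 and 253 in epithelial cells, against 181, 135 and 194 in T cells (0.14, adjusted p = 0.499). The largest change of any member was in Cox7a1, the heart and muscle form of subunit VIIa. It had 104, 64.9 and 119 scaled CPM in epithelial cells, against 0, 3.52 and 3.15 in T cells (5.22, SE 0.34, adjusted p = 5.03e-23). The broadly expressed form Cox7a2 was still far more abundant, with 685, 425 and 873 in epithelial cells, against 220, 192 and 316 in T cells (1.29). Cox6b2, known as the testis form of subunit VIb, was also called, at 6.32, 5.02 and 11.6 in epithelial cells, against 0, 0 and 1.57 in T cells (3.08, SE 0.66, adjusted p = 3.41e-05).

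Of the ATP synthase, 16 of 17 genes were higher (median 1.15) and Atp5h, a subunit of the peripheral stalk, was not called. Atp5g3, which encodes the ring subunit c, had 1957, 1203 and 2371 scaled CPM in epithelial cells, against 372, 318 and 499 in T cells (2.05, SE 0.21, adjusted p = 5.08e-14). Atp5g1, which encodes the same mature ring protein, had 844, 543 and 1114 in epithelial cells, against 228, 146 and 249 in T cells (1.86, SE 0.20, adjusted p = 1.59e-13). The catalytic beta subunit Atp5b had 1331, 933 and 1412 in epithelial cells, against 298, 311 and 351 in T cells (1.78, SE 0.20, adjusted p = 2.08e-12). These 3 genes separated all epithelial from all T cell libraries. The epsilon subunit Atp5e had 1072, 723 and 1298 in epithelial cells, against 600, 540 and 825 in T cells, with overlapping libraries (0.50, adjusted p = 0.0204).

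**Figure D2:**
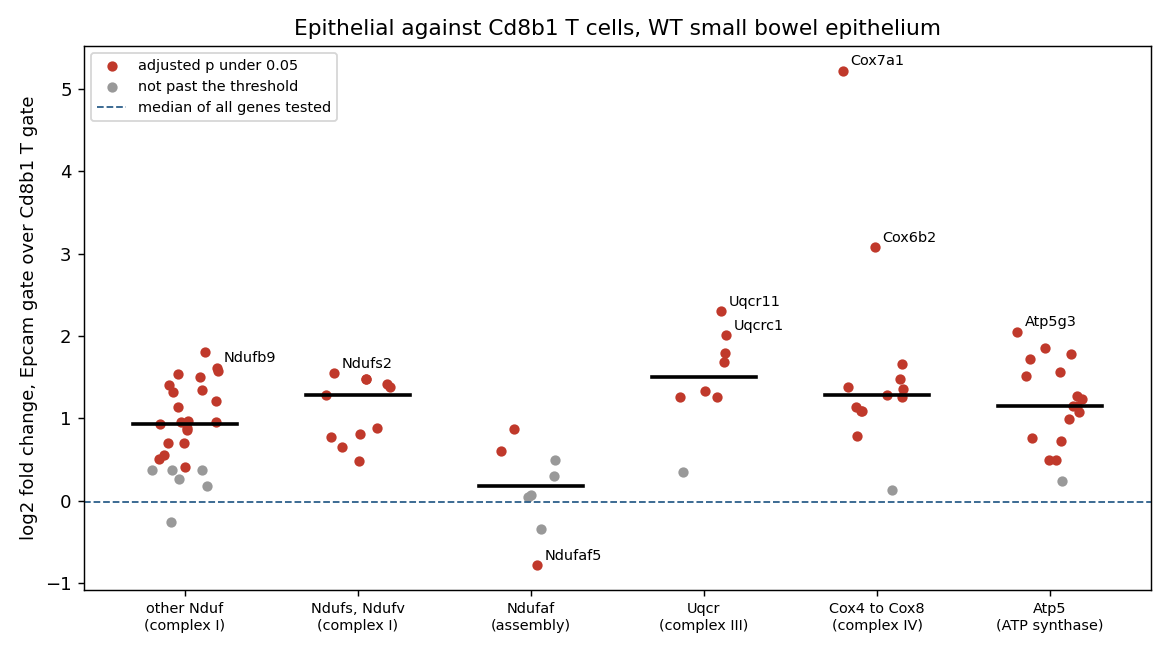
Log2 fold change of each tested oxidative phosphorylation gene in epithelial against Cd8b1 T cells of WT small bowel epithelium (y axis), by group of genes (x axis). Red points were called, grey points were not, black bars are group medians and the dashed line is the median of all genes; the Ndufaf factors lie near 0 with a median of 0.18, while the medians of the complexes run from 0.93 to 1.51.

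Other genes of the same pathway moved alongside. All 13 subunits encoded by the mitochondrial genome were higher in epithelial cells (median 1.79), as were the 4 subunits of complex II (1.56). Cycs, which encodes cytochrome c, and Cyc1, which encodes the cytochrome c1 subunit of complex III, were both higher (median 2.11). So were all 15 tested enzymes of the citric acid cycle (1.54). Glycolytic enzymes were mixed, with 9 higher and 1 lower of 15 (0.47). Assembly factors outside the naming rule gave 7 higher and 2 lower of 34 (0.07), close to the Ndufaf genes, and ribosomal protein genes gave 5 higher and 25 lower of 80 (-0.27). The list of stress genes gave 6 higher and 1 lower of 12 (1.15). In raw CPM the mitochondrially encoded subunits stood at 60444 ± 2135 in WT epithelial cells of the epithelium preparation (SD, n = 3). The size of the shift depends on scaling. With DESeq2 the median over all genes was 0.20 and 62.6% of calls were higher, against 52.2% in edgeR, and with RLE factors the all-gene median was 0.18 and the members' median 1.30, so members stayed above the median of all genes by about the same distance.

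The 250 bases before and 50 after the annotated start of 4 members are shown, 5′ to 3′ in the direction of the gene, from the RefSeq annotation of GRCm38.p6. Uqcrc1 and Cox6a1 are broadly expressed members that were strongly higher in epithelial cells, Cox7a1 had the largest change, and Ndufs6, a zinc-binding subunit of complex I, is taken up with the genotypes below. Capitals mark matches on either strand to the palindromic consensus of nuclear respiratory factor 1 (NRF1), which is GCGCA followed directly by TGCGC, to its looser form with any base in place of that A, to AAGATGGC (YY1) and to CCGGAAG (the ETS family, which includes NRF2).
Uqcrc1: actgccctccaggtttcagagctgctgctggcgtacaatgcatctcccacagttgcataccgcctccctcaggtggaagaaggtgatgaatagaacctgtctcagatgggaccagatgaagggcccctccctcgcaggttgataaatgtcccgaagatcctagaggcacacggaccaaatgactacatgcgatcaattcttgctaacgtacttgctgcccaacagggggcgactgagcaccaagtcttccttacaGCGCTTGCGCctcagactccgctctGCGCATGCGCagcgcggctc
Cox6a1: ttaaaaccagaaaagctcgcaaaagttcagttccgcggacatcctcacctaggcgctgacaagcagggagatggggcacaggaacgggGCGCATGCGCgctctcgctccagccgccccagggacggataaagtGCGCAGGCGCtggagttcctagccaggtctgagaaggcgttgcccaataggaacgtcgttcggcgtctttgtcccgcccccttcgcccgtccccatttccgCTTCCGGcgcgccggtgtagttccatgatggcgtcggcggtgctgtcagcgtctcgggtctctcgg
Ndufs6: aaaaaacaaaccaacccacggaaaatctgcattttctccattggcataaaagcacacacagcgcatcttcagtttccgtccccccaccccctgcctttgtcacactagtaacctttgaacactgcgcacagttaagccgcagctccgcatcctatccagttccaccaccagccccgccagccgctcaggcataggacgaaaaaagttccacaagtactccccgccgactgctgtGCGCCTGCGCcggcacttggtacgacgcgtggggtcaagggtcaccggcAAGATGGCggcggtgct
Cox7a1: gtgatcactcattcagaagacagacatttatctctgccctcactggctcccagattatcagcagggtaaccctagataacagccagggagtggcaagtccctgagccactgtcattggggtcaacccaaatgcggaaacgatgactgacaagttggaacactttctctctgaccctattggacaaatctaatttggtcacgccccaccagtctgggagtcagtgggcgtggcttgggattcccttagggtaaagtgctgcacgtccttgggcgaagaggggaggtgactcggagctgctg
Uqcrc1 lies at chr9:108936398-108936697 on the plus strand and Cox6a1 at chr5:115348909-115349208 on the minus strand. Ndufs6 lies at chr13:73328433-73328732 on the minus strand and Cox7a1 at chr7:30183921-30184220 on the plus strand. Uqcrc1 held 1 strict and 1 loose NRF1 match, Cox6a1 held 1 of each plus an ETS match, Ndufs6 held a loose NRF1 and a YY1 match, and in this window of Cox7a1 none of these letters occurred. Of the members, 72 matched the promoter table, with 77 promoters. The strict NRF1 letters were in 7 of these (9.09%), against 0.971% of all 32851 promoters of the same 300 bases, and the loose form, which includes the strict one, in 18 (23.4%), against 4.60%. The YY1 letters were in 10 (13.0%), against 2.75% of all promoters, and the ETS letters in 17 (22.1%), against 8.86%. At least 1 of the motifs was in 39 member promoters (50.6%), against 14.7% of all.

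A pair of complex IV genes that are usually described in heart and muscle were expressed in gut cells, in different places. In raw CPM, Cox7a1 was found mainly in epithelial gates. Its median over all genotypes was 50.7 CPM in the epithelium preparation (9.69 to 105 over 9 sums), 21.7 CPM in the lamina propria (12.4 to 29.1) and 28.4 CPM in the colon (25.4 to 40.3). Medians in the gates of other cell types were 0 to 5.61 CPM, and no molecule was counted in macrophages. In the epithelium preparation Cox7a1 was at 43.0 ± 20.4 CPM in KO, 30.1 ± 17.7 CPM in het and 84.6 ± 25.4 CPM in WT epithelial cells (SD, n = 3 each). These KO and het sums rest on 42 to 72 cells, against 385 to 420 cells in WT sums. They also held more T cell marker RNA (169 to 546 CPM in KO, 122 to 258 CPM in het and 30.6 to 63.1 CPM in WT) and less of the epithelial list (5587 to 7807 CPM in KO, 5405 to 9532 CPM in het and 8564 to 12444 CPM in WT). The part of these differences in the Cox7a1 level was not tested.

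Cox6a2, the heart and muscle form of subunit VIa, was concentrated in cells that carried Siglech. Siglech encodes a surface lectin of plasmacytoid dendritic cells, and this split was chosen after the values were seen. In the small bowel epithelium 340 cells with at least 1 Siglech molecule held 5305 Cox6a2 molecules, 99.2% of the total. Their pooled level was 1382 CPM, with 969 to 2013 CPM over the 9 combinations of genotype and library, against 0.470 CPM in the 16365 other cells. No combination came near the others' level. The ubiquitous form Cox6a1 was at 275 CPM in Siglech cells and 355 CPM in the other cells. In Siglech cells of the epithelium the heart form thus stood above the ubiquitous form in pooled CPM. Genes can differ in how well their 5′ end is captured. Siglech cells had more molecules per cell (median 9916.5, against 4867 in other cells), and CPM divide by that depth. Fewer Siglech cells were found elsewhere, and Cox6a2 was concentrated in them as well: 69 Siglech cells of the lamina propria held 214 Cox6a2 molecules (67.1% of the total; 267 CPM, against 0.670 CPM in other cells), and 42 in the colon held 341 (81.6%; 566 CPM, against 0.408 CPM). Pooled Cox6a1 in those Siglech cells was at 280 CPM in the lamina propria and 307 CPM in the colon. In the lamina propria the order of Cox6a2 and Cox6a1 varied by genotype and library. Cox6a2 was at 43.8 CPM, against 321 CPM of Cox6a1, in KO library 1, and at 809 CPM, against 196 CPM, in WT library 2. These lamina propria values rest on 2 to 13 Siglech cells each.

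All 1946 Cox6a2 molecules of the epithelium Mzb1 gate came from its Siglech cells, as did 352 of 358 in the epithelium Epcam gate, where 32 of 1530 cells (2.09%) carried Siglech. In the lamina propria plasma cell gate 28 of 6054 cells (0.463%) carried Siglech and held 87 of 130 Cox6a2 molecules, and in the colon 11 of 883 (1.25%) held 151 of 160. The Epcam gates of these tissues held few Cox6a2 molecules, 10 of 10 in Siglech cells in the lamina propria and 3 of 6 in the colon. Summed over all members, Siglech cells of the epithelium held 19474 CPM, close to the T cells of that tissue.

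**Figure D3:**
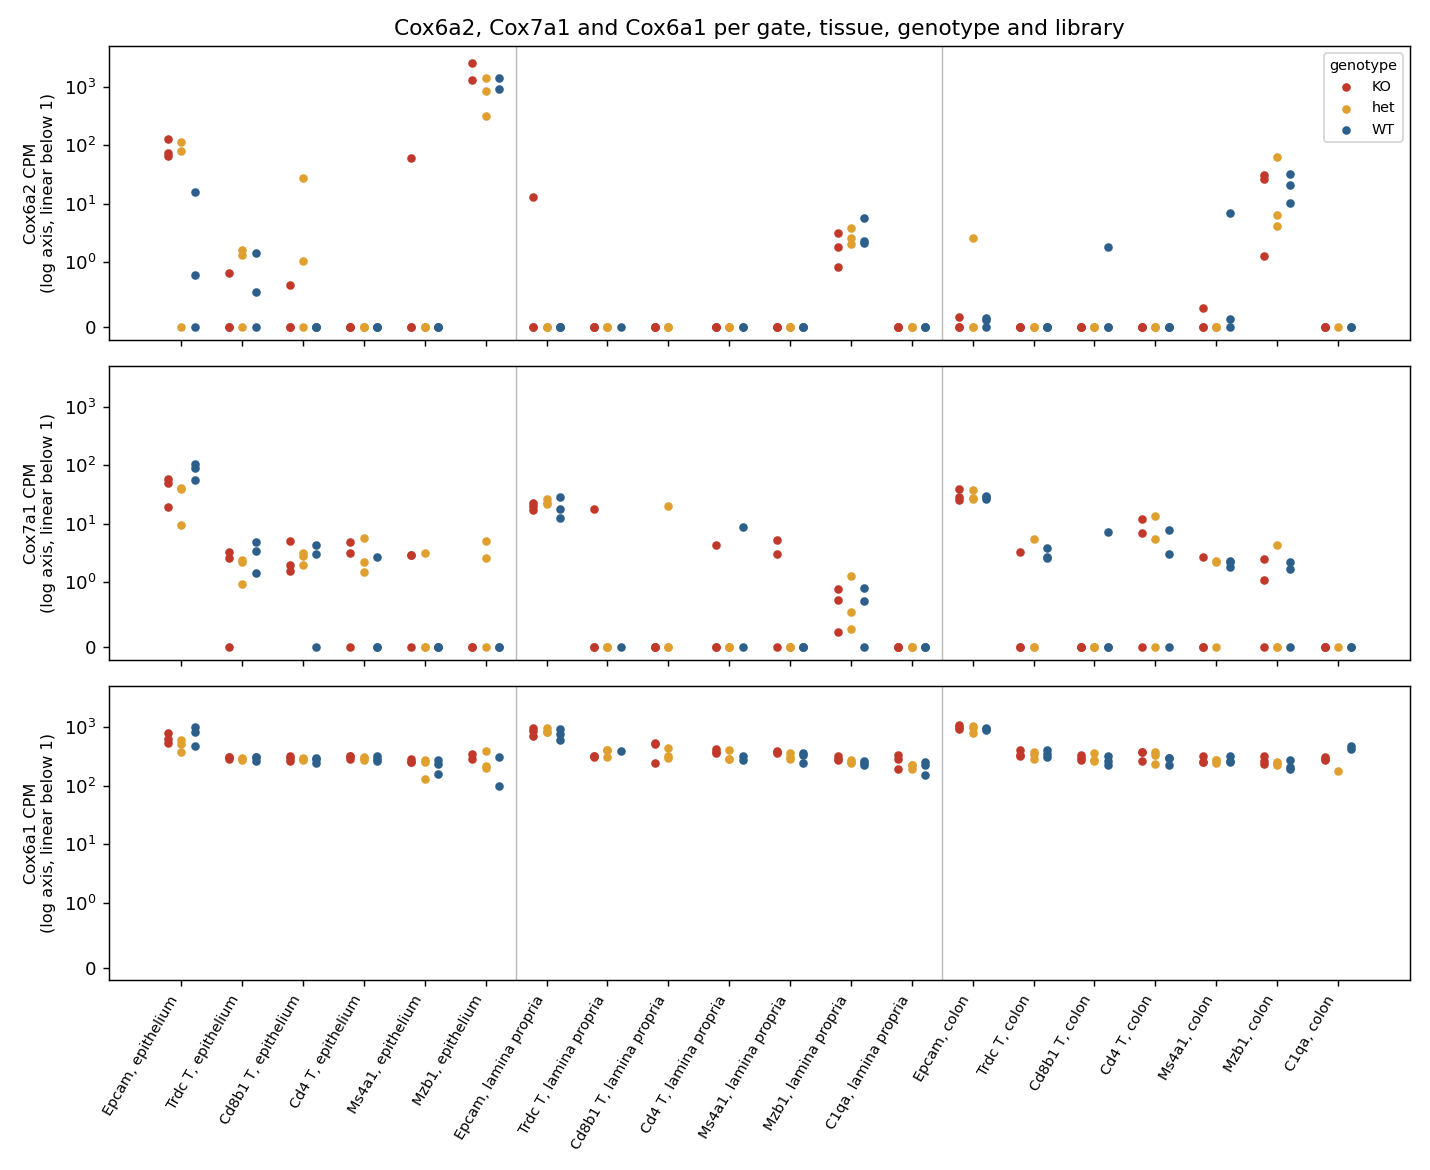
CPM of Cox6a2, Cox7a1 and Cox6a1 (y axis, logarithmic above 1 CPM and linear below) by cell gate (x axis), tissue, genotype and library, with 1 point for each sum. Cox7a1 points lie at 9.69 to 105 CPM in the epithelial gate of the epithelium preparation and near 0 in immune gates, Cox6a2 stands out in the Mzb1 gate of the small bowel epithelium, and Cox6a1 is present throughout.

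Among T cells of the epithelium the members hardly differed. In Trdc against Cd8b1 T cells of WT mice (690 against 853 cells) 0 of 82 tested members were higher and 2 were lower, where 4.67% of all genes were higher and 4.59% lower (edgeR). Ndufb1-ps, named as a pseudogene of a complex I subunit, had 147, 159 and 200 scaled CPM in Trdc T cells, against 205, 200 and 244 in Cd8b1 T cells (-0.33, SE 0.10, adjusted p = 0.0221). The assembly factor Ndufaf4 had 22.6, 23.1 and 22.4 in Trdc T cells, against 25.4, 38.3 and 39.9 in Cd8b1 T cells (-0.69, SE 0.23, adjusted p = 0.0495). Both differences were smaller in size than the median of members in epithelial cells (1.11), although that of Ndufaf4 exceeded the lower quartile there (0.59). In Trdc against Cd8b1 T cells the median of members was -0.04, against -0.01 for all genes. DESeq2, and edgeR without the block, called 0 members. With KO and het sums added to the fit, 1 member was higher and 16 were lower, where 10.9% of genes were called in each direction. The 16 had log2 fold changes of at most 0.44 in size, among them Ndufa4 (-0.22, adjusted p = 0.00036), Uqcrh (-0.18, adjusted p = 0.00088) and Atp5g2 (-0.17, adjusted p = 0.00029). Ribosomal protein genes moved in the same direction, with 60 of 80 lower in the WT fit.

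Cd4 against Cd8b1 T cells of the WT epithelium (148 against 853 cells) gave 0 called of 78 members, where 6.7% of genes were called by edgeR. At an unadjusted p under 0.05 there were 4 members, where 988 of 6130 genes were, and DESeq2 called 0 members. Atp5b came to 510, 410 and 422 scaled CPM in Cd4 T cells, against 362, 372 and 363 in Cd8b1 T cells (0.33, adjusted p = 0.232). Its libraries did not overlap, yet it did not pass. With KO and het sums in the fit 0 members were higher and 1 was lower (5.67% and 4.27% of genes). Of the 12 glycolytic enzymes tested, 4 were higher in Cd4 T cells.

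Plasma cells differed from Cd4 T cells in the lamina propria and from B cells in the colon in single subunits. Ndufa1 and Ndufa4 were higher in both comparisons. In the WT lamina propria, plasma cells (2488 cells, 3 libraries) were set against Cd4 T cells (41 cells, 2 libraries). Of 82 tested members 17 were higher and 1 was lower, where 8.87% of genes were higher and 3.94% lower (edgeR), and the median was 0.63 for members and 0.40 for all genes. Of these, 8 were other Nduf genes, 4 Ndufs genes, 2 Uqcr genes, 1 a Cox gene and 2 Atp5 genes, and 10 of 13 mitochondrially encoded subunits were higher too. The 41 T cells are a thin base. DESeq2 called 0 members, and with cells carrying Mzb1 no longer left out of the T cell gate only 1 was higher and 1 lower. With KO and het sums in the fit 43 were higher and 2 lower, where 25.9% and 15.6% of genes were.

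Ndufa1, an accessory subunit in the membrane arm of complex I, had 390, 329 and 364 scaled CPM in lamina propria plasma cells, against 59.7 and 163 in Cd4 T cells (1.73, SE 0.36, adjusted p = 3.02e-05). Ndufa4 had 600, 593 and 609 in plasma cells, against 144 and 250 in T cells (1.62, SE 0.32, adjusted p = 1.21e-05). Uqcr11 had 244, 172 and 228 in plasma cells, against 19.9 and 86.4 in T cells (2.08, SE 0.44, adjusted p = 4.35e-05). All 3 separated every plasma cell library from both T cell libraries. The exception was Atp5md, subunit k of the ATP synthase, which had 214, 200 and 200 in plasma cells, against 527 and 413 in T cells (-1.30, SE 0.29, adjusted p = 0.000176).

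In the colon the comparison was with B cells, from which plasma cells arise (383 against 2550 cells, 3 WT libraries each). The B cell gate kept cells with Mzb1, and the plasma cell list had a median of 4170 CPM over the colon B cell sums. The part of these cells in the result was not tested. Of 83 tested members 9 were higher and 2 lower, where 10.1% and 5.41% of genes were, so the share of members was near the background. The same subunits led. Ndufa1 had 294, 298 and 196 scaled CPM in plasma cells, against 103, 89.5 and 91.9 in B cells (1.57, SE 0.17, adjusted p = 0.00204). Ndufa4 had 373, 404 and 319 in plasma cells, against 220, 214 and 192 in B cells (0.92, SE 0.16, adjusted p = 0.0111). Ndufv3, an accessory part of the NADH-binding module, had 129, 140 and 119 in plasma cells, against 89.7, 81.6 and 78.3 in B cells (0.75, SE 0.13, adjusted p = 0.0109). For these genes no plasma cell library overlapped a B cell library. Ndufb9 (0.74), Uqcrq (0.72), Ndufb2 (0.59), Ndufb6 (0.56) and Uqcr11 (0.56) were also higher, as was Cox6a2, which in this gate came mostly from Siglech cells.

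The members lower in colon plasma cells were Cox7a2l and Ndufb1-ps. Cox7a2l had 127, 105 and 102 scaled CPM in plasma cells, against 207, 180 and 187 in B cells (-0.67, SE 0.13, adjusted p = 0.0176). Ndufb1-ps had 87.1, 84.4 and 99.5 in plasma cells, against 141, 135 and 136 in B cells (-0.49, SE 0.13, adjusted p = 0.0473). The plasma cell counts rested on the libraries: without library 1 the total of called members was 3, without library 2 it was 2, and with all genotypes 36 were higher and 5 lower (21.5% and 20.9% of genes). Leaving out immunoglobulin genes gave 15 higher and 3 lower.

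Colon Cd4 T cells against B cells (195 against 2550 cells) gave 2 higher and 0 lower of 82, where 13.5% and 11.2% of genes were called. Ndufv3 had 150, 179 and 159 scaled CPM in Cd4 T cells, against 119, 108 and 105 in B cells (0.70, SE 0.17, adjusted p = 0.0101), and Atp5h had 558, 443 and 500 in Cd4 T cells, against 420, 367 and 389 in B cells (0.47, SE 0.15, adjusted p = 0.038). Both were lost when library 3 was left out, and with all genotypes 14 were higher and 3 lower (21.8% and 21.7% of genes). Of other lists, 8 of 14 glycolytic enzymes were higher in Cd4 T cells and 3 enzymes of the citric acid cycle were lower.

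Macrophages gave no called member in WT mice. In the lamina propria, against Cd4 T cells (82 against 41 cells), 0 of 47 tested members were called, where 26.1% of genes were (edgeR). There were 0 members at an unadjusted p under 0.05, where 589 of 1680 genes were, and DESeq2 called 0 members. In the colon, against B cells (28 against 2550 cells), edgeR called 0 of 82, where 7.32% of genes were called. There 5 members were at an unadjusted p under 0.05, where 1777 of 10818 genes were, and DESeq2 called 0 members. These macrophage sums rest on 28 and 82 cells. With all genotypes 0 were higher and 6 lower in the lamina propria (28% and 22.1% of genes), and 4 were higher and 2 lower in the colon (15.9% and 18.4% of genes).

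Between tissues, a pair of ATP synthase subunits changed in opposite directions in T cells. In WT Cd4 T cells, the small bowel epithelium (148 cells) was set against the lamina propria (41 cells, 2 libraries). Of 73 tested members 1 was higher and 1 lower, where 2.52% and 6.78% of genes were (edgeR). Atp5md had 312, 323 and 408 scaled CPM in the epithelium, against 980 and 767 in the lamina propria (-1.45, SE 0.23, adjusted p = 0.000728). Atp5c1, the gamma subunit of the central stalk that turns inside the catalytic head, had 332, 353 and 269 in the epithelium, against 111 and 89.2 in the lamina propria (1.50, SE 0.34, adjusted p = 0.0113). For neither gene did the libraries of the 2 tissues overlap. Without the shallow lamina propria library 3 a single T cell sum remained, assumed to vary like the others, and Atp5md was at -1.54 and Atp5c1 at 1.45, with 4 members called in all.

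With KO and het sums added to the WT sums, both genes kept their direction in Cd4 T cells, with smaller differences. In tissue fits over all genotypes, here and below, KO, het and WT sums of 1 capture counted as separate samples. Their p-values therefore do not measure the spread between captures. The fit of Cd4 T cells over all genotypes gave 9 higher and 4 lower (18% and 21.3% of genes), with Atp5md at -1.10 (SE 0.14, adjusted p = 5.57e-07) and Atp5c1 at 0.74 (SE 0.17, adjusted p = 0.00103). In Cd8b1 T cells no WT fit could be made because no WT lamina propria sum reached the minimum of cells. Over the other genotypes and the epithelium WT sums 2 members were higher and 3 lower (8.73% and 11% of genes). Of these Atp5md was at -1.21 (SE 0.12, adjusted p = 3.56e-09), Uqcrh at -0.56 (SE 0.13, adjusted p = 0.00178), Cox6a1 at -0.50 (SE 0.15, adjusted p = 0.0144), Ndufa3 at 0.55 (SE 0.18, adjusted p = 0.0235) and Atp5c1 at 0.64 (SE 0.16, adjusted p = 0.00298).

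In raw CPM over all genotypes, Atp5md had medians of 354, 365 and 328 CPM in Cd4, Cd8b1 and Trdc T cells of the epithelium and 322, 322 and 372 CPM in those of the colon. In the lamina propria it had medians of 673 CPM in Cd4 (8 sums, 408 to 1019), 744 CPM in Cd8b1 (6 sums, 597 to 960) and 877 CPM in Trdc T cells (7 sums, 785 to 1059). The lamina propria sums of Cd8b1 and Trdc T cells thus lay wholly above those of the same gates in both other tissues. Plasma cell medians of Atp5md were 139 CPM in the colon and 135 CPM in the lamina propria, and the scaled fit of WT plasma cells gave a colon against lamina propria difference of -0.39 (adjusted p = 0.0772). Atp5c1 medians were 295, 263 and 243 CPM in Cd4, Cd8b1 and Trdc T cells of the epithelium and 322, 339 and 327 CPM in the colon, against 131, 161 and 73.8 CPM in the lamina propria. Atp5c1 was lower in the lamina propria in B cells too (252 CPM in the epithelium and 285 CPM in the colon, against 139 CPM), and in macrophages (283 CPM in the colon, against 136 CPM). Tissue, its preparation and its libraries cannot be told apart here.

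**Figure D4:**
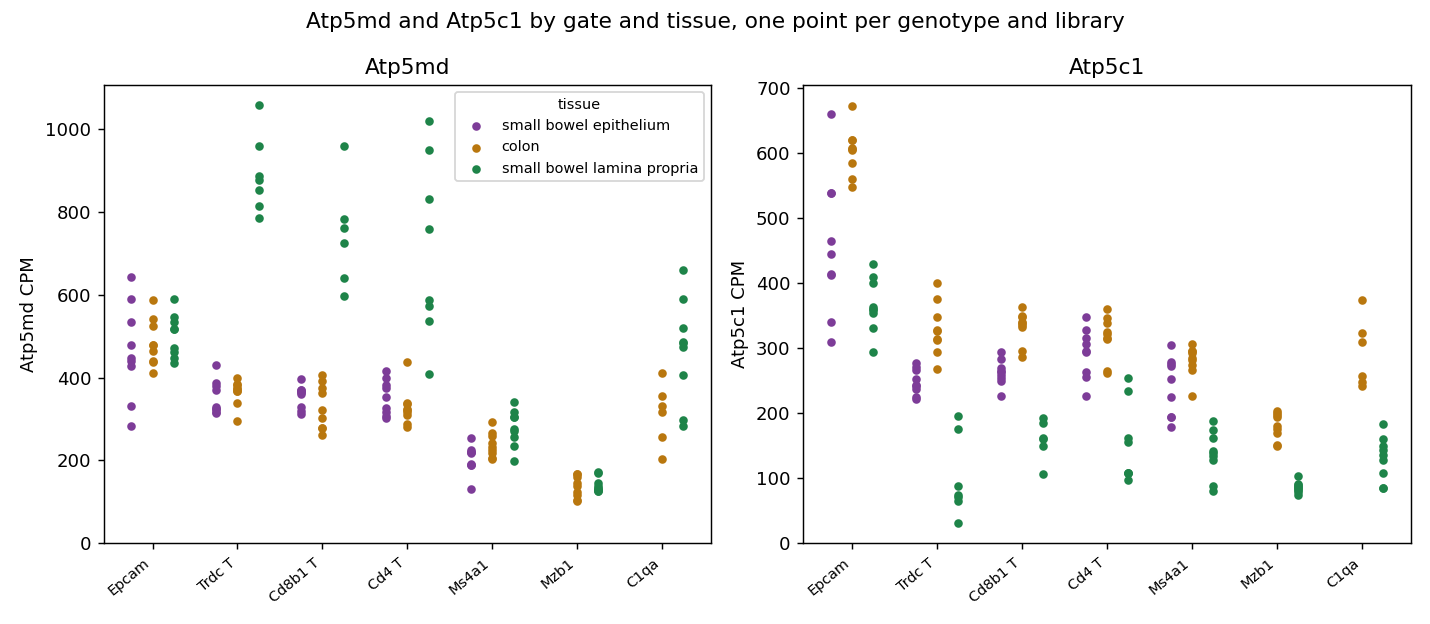
CPM of Atp5md and Atp5c1 (y axis) by cell gate (x axis) in the small bowel epithelium, the colon and the small bowel lamina propria, with 1 point per sum. In T cell gates the lamina propria points are high for Atp5md (medians of 673 to 877 CPM) and low for Atp5c1 (medians of 73.8 to 161 CPM).

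Plasma cells of the colon against those of the lamina propria (WT, 383 against 2488 cells) gave 7 higher and 15 lower of 82, where 14.7% and 14.8% of genes were called. Higher in the colon were 3 ATP synthase subunits (Atp5b, Atp5c1 and Atp5d), the complex III core protein Uqcrc2, the complex I subunits Ndufa10 and Ndufa9, and Cox6a2. Lower were 8 other Nduf genes, 3 Ndufs and Ndufv genes, 2 Ndufaf factors and 2 small subunits of complex III. Of the 13 mitochondrially encoded subunits 8 were lower and 0 higher (median -1.06), while 9 of 15 glycolytic enzymes were higher and 1 lower.

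Atp5b had 290, 262 and 235 scaled CPM in colon plasma cells, against 166, 143 and 151 in the lamina propria (0.89, SE 0.17, adjusted p = 0.00676). Uqcrc2 had 58.0, 55.1 and 53.2 in the colon, against 36.9, 36.6 and 41.1 in the lamina propria (0.65, SE 0.13, adjusted p = 0.00792). Atp5c1 had 160, 129 and 147 in the colon, against 102, 101 and 95.1 in the lamina propria (0.66, SE 0.15, adjusted p = 0.0117). For these large subunits no colon library overlapped a lamina propria library, which held for 47 of the 82 tested members. The share over all genes was not counted. Ndufa2, of the matrix arm of complex I, had 109, 104 and 93.5 in the colon, against 225, 190 and 214 in the lamina propria (-0.92, SE 0.16, adjusted p = 0.00398). Uqcr11 had 96.3, 80.1 and 67.8 in the colon, against 199, 139 and 184 in the lamina propria (-0.98, SE 0.20, adjusted p = 0.00772). Ndufaf2, an assembly factor, had 7.48, 5.01 and 5.5 in the colon, against 15.5, 14.1 and 16.3 in the lamina propria (-1.25, SE 0.25, adjusted p = 0.00752). Ndufs7, which carries an iron-sulfur cluster, had 63.6, 54.3 and 54.1 in the colon, against 117, 98.6 and 85.8 in the lamina propria (-0.70, SE 0.16, adjusted p = 0.0141). The plasma cell marker list itself was at 55415 to 78384 CPM in colon and 224691 to 248986 CPM in lamina propria WT sums, and its part in these differences was not tested. Without the shallow lamina propria library 3 the members called numbered 13 in place of 22, with Atp5b at 0.87, Ndufa2 at -0.91 and Uqcr11 at -0.94. Over all genotypes 18 members were higher and 36 lower, where 27.2% and 26% of genes were.

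Colon against lamina propria macrophages of WT mice (28 against 82 cells) gave 1 call of 51, where 3.43% of genes were higher and 3.28% lower. Atp5c1 had 370 and 319 scaled CPM in the 2 colon sums, against 110, 91.9 and 138 in the lamina propria (1.76, SE 0.47, adjusted p = 0.0443). DESeq2 called 0 members, and without lamina propria library 3 edgeR called 2. The fit over all genotypes gave 15 higher and 0 lower of 47 (21.1% and 20.5% of genes), led by Atp5b (1.24, SE 0.22, adjusted p = 0.000225) and Atp5c1 (1.15, SE 0.21, adjusted p = 0.000407). The T cell list lay at 89.6 to 305 CPM in colon and 0 to 47.9 CPM in lamina propria WT macrophage sums, and the plasma cell list at 1236 to 1329 CPM in colon and 9594 to 45720 CPM in lamina propria; their part was not tested.

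Loss of St8sia6 left the members without a called change. KO and het were each compared with WT in 6 gates with the library as a block: Cd8b1 and Trdc T cells of the epithelium, Cd4 T and plasma cells of the lamina propria, and B and Cd4 T cells of the colon. In the 12 comparisons 66 to 83 members were tested and 0 were called by edgeR. The share of all genes called was 0.354%, 0.763%, 0%, 0.0474%, 0.0496% and 0% for KO, and 0.396%, 0.612%, 0%, 0.0284%, 0.0297% and 0% for het, in the order of gates above. Members at an unadjusted p under 0.05 numbered 0 to 7 per comparison. The 7, of 83 tested, were in lamina propria plasma cells of KO mice, where 1119 of 10547 genes were at that level. DESeq2 called 1 member there and 0 in the other 11 comparisons. The KO effect on Cd4 T cells was also compared across the 3 tissues, and 0 of 76 members and 0 of 5785 genes differed (0%; edgeR interaction). At an unadjusted p under 0.05 there were 4 members and 405 of the 5785 genes, and DESeq2 called 0 members.

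Member medians lay between -0.09 and 0.16. The most one-sided was the lamina propria plasma cell gate, in which 66 of 83 members (79.5%) had a positive log2 fold change in KO against WT, where 5319 of 10547 genes did (median 0.12 for members). Het plasma cells gave 59 of 83. There, members summed to 10221 ± 678 CPM in KO, 9587 ± 441 CPM in het and 8941 ± 380 CPM in WT (SD, n = 3 libraries each), with KO and het above WT in 3 of 3 libraries and a WT mean of 9083 CPM without the shallow library 3. Without immunoglobulin genes the sums were 21907 ± 1019 CPM in KO, 20837 ± 1076 CPM in het and 18991 ± 1664 CPM in WT. In colon plasma cells they were 10910 ± 776 CPM in KO, 11010 ± 977 CPM in het and 11150 ± 1048 CPM in WT, with KO above WT in 1 of 3 libraries, and without immunoglobulin genes 20784 ± 1865 CPM in KO, 19209 ± 1373 CPM in het and 18464 ± 1921 CPM in WT, with KO above WT in 3 of 3. Colon B cells leaned the other way in het mice, where 17 of 82 members (20.7%) were positive.

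**Figure D5:**
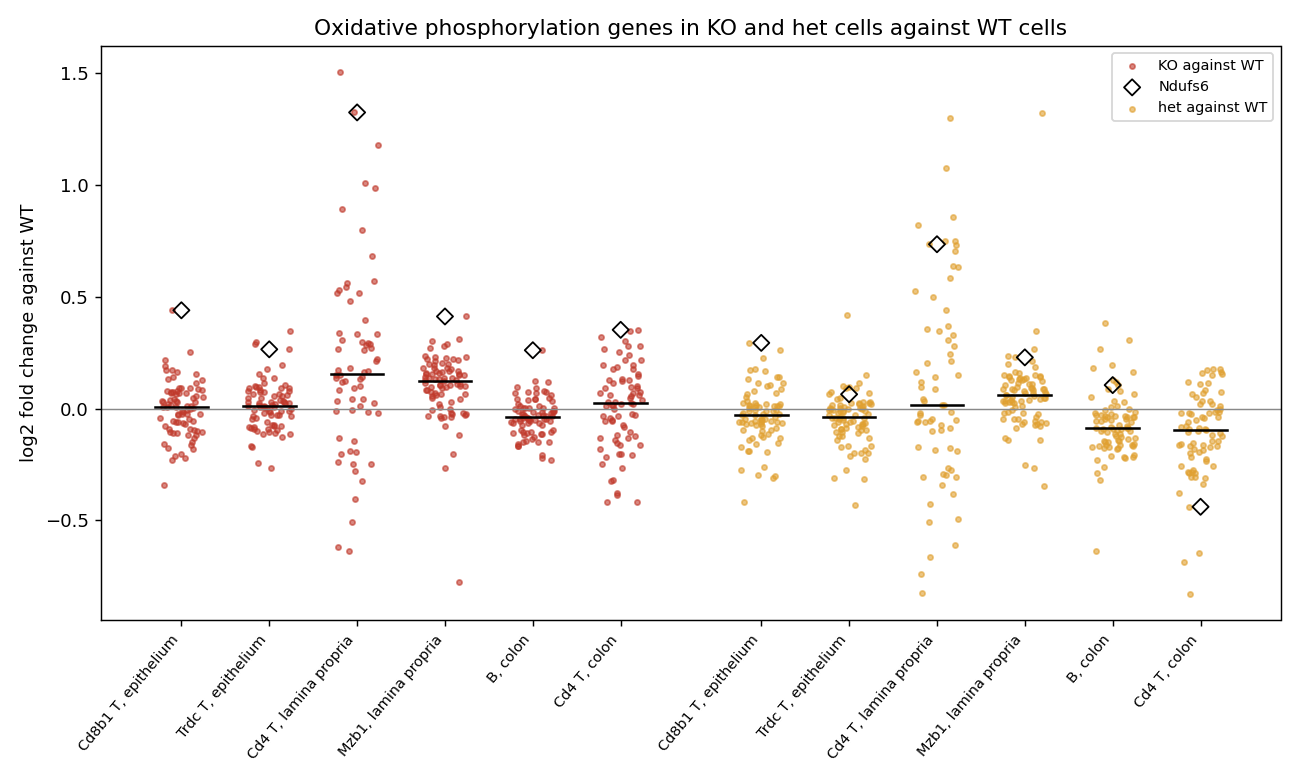
Log2 fold change of each tested member (y axis) in KO against WT and in het against WT, in 6 gates (x axis). Black bars are member medians, which run from -0.09 to 0.16, and diamonds mark Ndufs6; no point was called.

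Ndufs6, singled out after the values were seen, had the lowest unadjusted p of any member in 3 of the 6 KO comparisons: lamina propria plasma cells, epithelium Cd8b1 T cells and colon B cells. In plasma cells it had 103, 103 and 107 scaled CPM in KO, 88.6, 89.7 and 95.1 in het and 82.3, 75.9 and 74.0 in WT (KO against WT 0.41, SE 0.09, adjusted p = 0.215). In Cd8b1 T cells it had 122, 108 and 115 in KO, against 84.0, 73.2 and 93.8 in WT (0.44, SE 0.12, adjusted p = 0.212). In these gates no KO library overlapped a WT library, but neither difference passed over all genes tested. Such separation held for 24 of 83 tested members in plasma cells and 2 of 82 in Cd8b1 T cells, Ndufs6 included. The share over all genes was not counted. Trdc T cells had 107, 102 and 135 in KO, against 101, 88.9 and 97.8 in WT (0.26, adjusted p = 0.504). Colon B cells had 88.0, 82.5 and 74.9 in KO, against 84.4, 65.2 and 61.8 in WT (0.26, adjusted p = 0.593). Colon Cd4 T cells had 144, 106 and 117 in KO and 67.2, 63.5 and 68.5 in het, against 113, 92.4 and 77.1 in WT (KO against WT 0.35, adjusted p = 1). Across the settings tried, the adjusted p of Ndufs6 in plasma cells ran from 0.0242 to 0.746, and 2 of 14 settings called it: DESeq2 (0.41, adjusted p = 0.0474) and edgeR with immunoglobulin genes left out (0.42, adjusted p = 0.0242).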

How the data were processed

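Both kinds of deposited matrix (genes and hashtags by cell) hold whole-number counts of UMIs that the authors did not normalize. Deposited name files (unit other) list features and barcodes. Per the submitters' processing notes, Cell Ranger and Seurat were used with mm10, and versions are not given in the sources used here. Barcode endings were read as 3 libraries of 3 genotypes per tissue, the genotype of an ending being its highest median hashtag, and library numbers do not pair tissues or name runs. Cells were kept, as in the study, with 200 to 8000 genes detected, 300 to 50000 UMIs and mitochondrial reads below 20%.

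Counts were summed per gate, genotype and library (at least 10 cells). CPM are relative to all genes of a sum. Tests were the edgeR 4.0.16 quasi-likelihood test (R 4.3.3, TMM, filterByExpr, Benjamini-Hochberg over all genes tested), with the library as a block for genotypes and cell types, because genotypes of a library shared a capture. Scripts were tested on simulated data. Alternatives were DESeq2 1.42.0, RLE factors, no filter on low counts, gates at 2 molecules, Mzb1 not used to leave cells out, cells of at least 1000 molecules, no immunoglobulin genes, genotype by hashtag share (80% and at least 10 molecules), no block, all genotypes and leaving out libraries. Leaving out Siglech cells was added after seeing the data. No doublet caller was run. Cells that carried Cd3e, Ms4a1, Mzb1, C1qa or Epcam outside their gate were left out, except that the B cell gate kept cells with Mzb1. T cell gates also left out cells with another of Cd4, Cd8b1 and Trdc. Named genes were up to 5 called members with the smallest p per direction in each comparison, fixed examples of each complex and tissue-specific paralogs; other genes named beside them were chosen after their values were seen. One of these examples is not reported here. How reads shared between members and their pseudogene copies were counted is not given in the sources used here. Members, lists and rules were chosen with earlier results of these data known. Counts of cells come from single mice or a pool of 2 WT mice per library, so p-values measure the spread between libraries. The exceptions are the fits over all genotypes. In those of tissues, sums of 1 capture counted as separate samples. In those of cell types, each genotype of a library was its own block, so pairs of sums from 1 capture counted separately.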

Additional observations from a re-analysis of the deposited data

Results flagged for a closer look

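The summed level of the oxidative phosphorylation genes in epithelial cells differed between het and WT mice in opposite directions in 2 tissues. In the small bowel epithelium het lay below WT in 3 of 3 libraries (mean log2 difference -0.372; 25996 ± 3708 CPM in het and 34468 ± 10079 CPM in WT, SD, n = 3). In the small bowel lamina propria het lay above WT in 3 of 3 libraries (0.102; 34590 ± 3502 CPM in het and 32245 ± 3385 CPM in WT, SD, n = 3). With immunoglobulin genes left out of the total, the lamina propria sums were 32533 to 39217 CPM in het and 31334 to 36389 CPM in WT (mean log2 difference 0.08, from 0.05 to 0.11 by library). WT library 3 of the lamina propria stood apart, with a median of 1059 molecules per cell, against 3702 to 4976 in het and 3301 and 4778 in the other WT libraries. Plasma cell markers in its Epcam gate stood at 28817 CPM, against 7229 to 10023 CPM in het and 5804 and 8572 CPM in the other WT libraries, and their part in the difference was not tested. The difference between the tissues was not tested. The het sums of the epithelium held 42 to 72 cells each, against 385 to 420 in WT, and T cell markers stood at 122 to 258 CPM in het and 30.6 to 63.1 CPM in WT.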

How the results depend on the processing

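Across 12 genotype comparisons 149 of 152 alternative counts of called members were 0. The exceptions were 1 member each: Cox6a2 in het Cd8b1 T cells with no filter on low counts, and Ndufs6 in KO plasma cells of the lamina propria with DESeq2 and with immunoglobulin genes left out. Of 498 values of named genes under alternatives, 420 kept direction and call, 78 kept direction without passing, and 0 changed direction. In epithelial against Cd8b1 T cells the members called numbered 60 to 74 when libraries were left out (70 in the main fit), 71 with DESeq2 and 76 with RLE factors. For the other cell types and tissues the causes of the shifts below were not tested.

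Sums from the same library were paired by the block, since their cells shared a capture. With no replicate block the count for epithelial against Cd8b1 T cells was 64, for Trdc against Cd8b1 T cells 0, for colon macrophages against B cells 2 and for lamina propria plasma against Cd4 T cells 27.

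Trdc against Cd8b1 T cells (2 called) gave 0 with DESeq2, 1 with no filter, with gates at 2 molecules, with Mzb1 not used to leave cells out or without Siglech cells, 0 to 1 without single libraries, and 17 with all genotypes. Cd4 against Cd8b1 T cells (0 called) gave 1 with the hashtag share rule, 0 to 1 without single libraries and 1 with all genotypes. Lamina propria plasma against Cd4 T cells (18) gave 0 with DESeq2, 2 with Mzb1 not used to leave cells out and 45 with all genotypes, and macrophages there (0) gave 6 with all genotypes. Colon plasma against B cells (11) gave 18 without immunoglobulin genes, 2 to 12 without single libraries and 41 with all genotypes. Colon Cd4 T against B cells (2) gave 5 with Mzb1 not used to leave cells out, 0 with the hashtag share rule, 0 to 2 without single libraries and 17 with all genotypes. Colon macrophages against B cells (0) gave 1 with RLE factors, 1 with gates at 2 molecules, 1 without library 2 and 6 with all genotypes. Their share of higher calls over all genes was 49.5% in edgeR and 86.7% in DESeq2.

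Epithelium against lamina propria Cd4 T cells (2) gave 1 to 4 without single libraries and 13 with all genotypes, and the share of higher calls over all genes was 27.0% in edgeR and 17.0% in DESeq2. Colon against lamina propria plasma cells (22) gave 11 with gates at 2 molecules, 7 with the hashtag share rule, 12 to 22 without single libraries and 54 with all genotypes. Colon against lamina propria macrophages (1) gave 0 with DESeq2, with no filter or without Siglech cells, 4 with gates at 2 molecules, 2 with Mzb1 not used to leave cells out, 0 to 2 without single libraries and 15 with all genotypes. The summed level of WT plasma cells in the lamina propria was 8941 CPM, 18991 without immunoglobulin genes and 19503 with TMM scaling. In the colon it was 11150 CPM, 9908 with gates at 2 molecules, 9895 with the hashtag share rule, 18464 without immunoglobulin genes and 17311 with TMM scaling.

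Some alternatives could not be run for want of sums of at least 10 cells: comparisons with lamina propria Cd4 T cells under gates at 2 molecules or the hashtag share rule, plasma cells and macrophages against them without library 2 or 3, colon macrophage comparisons with cells of at least 1000 molecules or the hashtag share rule, and colon macrophages against B cells without library 1 or 3.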
